A study of Rattus with 9 samples.

Results

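Blood vascular endothelial cells line the vessels of the bile duct wall, and their transcripts were counted in single cells of the rat extrahepatic bile duct. A droplet barcode was taken as such a cell when it held 401 to 5999 genes, under 25% mitochondrial and under 3% hemoglobin molecules, and at least 3 of the 7 endothelial genes Cdh5, Egfl7, Emcn, Kdr, Vwf, Plvap and Ptprb. It also had to lack any molecule of Ptprc (leukocytes), Epcam (epithelium) and Lum (fibroblasts) and to hold under 2 of the lymphatic genes Prox1, Mmrn1, Pdpn and Reln. The members were thus selected on measured transcripts, and the values of the rule's genes are given without a test. The fits below did not leave these genes out, so counts of genes can include them. Of 150379 barcodes within the limits on genes, mitochondrial and hemoglobin molecules, 5927 (3.94%) met this rule. They came from 9 samples in 20 libraries and carried 1156847 to 7857206 unique molecular identifiers (UMIs), the tags that mark single RNA molecules, per sample.

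The series holds 3 groups of bile ducts, and its labels give no strain, sex or age. The sham group has 3 samples of 1 library each (283, 433 and 518 cells). The LT group is a rat liver transplantation model with ischemic injury in Sprague-Dawley rats, the strain named in the study's methods, with a graft exposed to warm ischemia. It has 1 sample each at days 1, 3 and 7 (334, 162 and 980 cells, 3 libraries per sample). The raised flow group had the same transplantation, and in addition the splenic and the gastric-duodenal artery were ligated so that more arterial blood reached the graft. It has 1 sample each at days 1, 3 and 7 (1049, 1033 and 1135 cells in 3, 2 and 3 libraries), and 1 further library of day 3 was not analysed here. Whether several libraries of 1 sample stem from different rats is not stated, so they were summed by sample. The p-values below measure only the spread between these samples. Each day of a transplanted arm is 1 sample, so the gene tests hold no spread between grafts of the same arm and day. Their spread comes from the sham samples and from departures of the days from 1 common effect of raised flow. The labels give no day for the sham samples, so the transplant and the time after an operation cannot be told apart.

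The bile ducts receive their blood from the hepatic artery through a plexus of small vessels around the duct wall, and the endothelium of this plexus is known to be sensitive to loss of arterial flow during transplantation. Endothelial cells sense flowing blood through shear stress, which keeps transcription factors such as Klf2 and Klf4 and the anticoagulant receptor thrombomodulin (Thbd) high. When starved of oxygen they switch to angiogenic genes, and when exposed to interferon they display MHC molecules and secrete chemokines that draw T cells.

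The rule used 7 endothelial genes, so their values describe the cells and do not test the label. Plvap, which forms the diaphragms of fenestrated and venular endothelium, was detected in 92.4% of the cells, the junction cadherin Cdh5 in 87.5%, Emcn in 86.4%, Kdr in 57.9% and Vwf in 36.9%. Cdh5 stood at 553 CPM (counts per 1000000 UMIs) in these cells against 12.6 CPM in the other barcodes, and Plvap at 2428 against 38.5 CPM. At the edge of the rule, 1133 cells held exactly 3 of the 7 genes, and 864 further barcodes held 2 and met every other limit. All 7 genes were detected in 500 cells.

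Depth and carry-over from other cells differed between libraries. The median UMI count per cell ranged from 2718 to 9396.5 over the 20 libraries and was lowest in sham 2 and sham 3. The share of UMIs that the profile of near-empty droplets could account for was 1.13% to 5.13% in 19 libraries and 12.5% in library 3 of raised flow day 1. Libraries of a sample shared at most 0.395% of their barcodes, and libraries of different samples at most 1.19%. Neutrophil genes summed to 10.8 to 38.9 CPM in sham, 113 to 819 CPM in LT and 160 to 757 CPM in raised flow, and mural genes (Rgs5, Acta2 and others) to 518 to 1137, 283 to 764 and 699 to 1107 CPM. T, NK and B cell genes summed to 1.10 to 2.52 CPM in sham and reached 33.3 CPM in LT day 7 and 36.3 CPM in raised flow day 7. Lymphatic genes summed to 145.6 CPM in sham 1, 1462 CPM in sham 2 and 926 CPM in sham 3, to 106 to 203 CPM in LT and to 128 to 312 CPM under raised flow. Biliary genes summed to 146 to 189 CPM in sham, 23.5 to 130.2 CPM in LT and 54.7 to 81.6 CPM under raised flow, and macrophage genes to 139 to 254, 152 to 475 and 174 to 376 CPM. The part of these other cells in the results was not tested beyond a fit without the clusters that they led, which is given where it changed a call. LT day 3 rests mainly on its library 1 (150 cells), since libraries 2 and 3 held 4 and 8 cells after the hemoglobin limit had removed 85.0% and 92.2% of their barcodes.

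The endothelial cells were not uniform. After centring by sample they fell into 9 clusters, whose leading genes are a description. Their sizes depend on this centring and are given below without a test between groups. A capillary-like cluster of 1046 cells expressed Rgcc, Gpihbp1 (the anchor of lipoprotein lipase) and Aplnr with Rbp7, Fabp4 and Cxcl12. An arterial-like cluster of 621 cells held the connexins Gja5 and Gja4 with Sox17, Efnb2 and Dll4. The largest cluster (1434 cells) was led by Ubd, Abi3bp, the addressin Madcam1, Cxcl11 and Il33, with Selp and Vwf, and stayed unnamed because it showed only 2 venous markers. A further unnamed cluster of 982 cells was led by Igfbp3, Cxcr4, Kcne3, Acp5 and Apln, and 364 cells expressed cell cycle genes such as Top2a and Mki67. A cluster of 589 cells with the lowest median UMI count (1582) was led by Clic4, Rnf213 and RT1-CE7, had no listed cell type marker that was found in over 10% of its cells at more than 2 times its level in the other members, and stayed unnamed.

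In 3 clusters, called clusters led by other cells in this text, mural, liver sinusoidal or leukocyte genes stood beside the general endothelial ones. Liver sinusoidal cells are themselves blood endothelial cells. A cluster of 686 cells with a high median UMI count (9629.5) held 5 of 6 mural markers, among them Rgs5, Pdgfrb and Acta2. A liver sinusoidal-like cluster of 118 cells held Fcgr2b, Lyve1, Oit3, Clec1b, Stab2 and Clec4g, and 73.7% of it came from raised flow day 1, where library 3 held 76 of these cells, library 1 held 11 and library 2 held 0. A cluster of 87 cells held macrophage and neutrophil genes (C1qa, Lyz2, S100a8). A doublet score marked 168 of the 5927 cells (2.83%), and 10720 of all 150379 barcodes within the limits. The cutoff was a set percentile of the score, which largely fixed the number of barcodes marked in advance. The 2.83% is therefore no estimate of the doublet rate among these cells.

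To ask whether the endothelium made up less of the dissociated duct after transplantation, its share of all barcodes within the limits was compared. It was 11.5% (95% exact binomial interval 10.3 to 12.9), 4.34% (3.95 to 4.76) and 4.32% (3.97 to 4.70) in the sham samples. In LT it was 2.42% (2.17 to 2.69) at day 1, 1.99% (1.696 to 2.315) at day 3 and 2.87% (2.69 to 3.05) at day 7, so every LT sample lay below every sham sample. The mean was 2.43% ± 0.44 (SD, n = 3) in LT against 6.73% ± 4.15 (SD, n = 3) in sham, and the ratio of the means taken on the log scale was 0.400 (exact permutation test, two-sided p = 0.10, the smallest that 3 against 3 samples allow). Sham 1 stood far above the other sham samples, and without it the log2 ratio shrank from -1.32 to -0.85. The intervals cover counting error only.

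Under raised flow the share was 4.31% (4.06 to 4.58) at day 1, 5.84% (5.50 to 6.20) at day 3 and 4.08% (3.85 to 4.32) at day 7, above the LT sample of the same day at each of the 3 days. The mean was 4.74% ± 0.96 (SD, n = 3), and on the log scale the ratio to LT was 1.95 (exact sign-flip permutation test over the 3 days, two-sided p = 0.25, the smallest that 3 pairs allow). Single libraries spread from 1.14% to 5.20% within LT day 7 and from 2.41% to 5.96% within raised flow day 1, so libraries of both arms overlapped. A share of dissociated cells also moves with the other cells released, and a lower share cannot be told apart from fewer endothelial cells recovered in digestion. The share is also the rate at which barcodes pass the rule, so it moves with the level of the 7 endothelial genes per cell. Among the members, Plvap ranged from 1466 to 6934 CPM between samples. Thinned to 1500 UMIs per cell, the log2 ratios were -1.46 for LT against sham and 0.96 for raised flow against LT. How far the levels of the rule's genes set the shares was not tested.

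**Figure D1:**
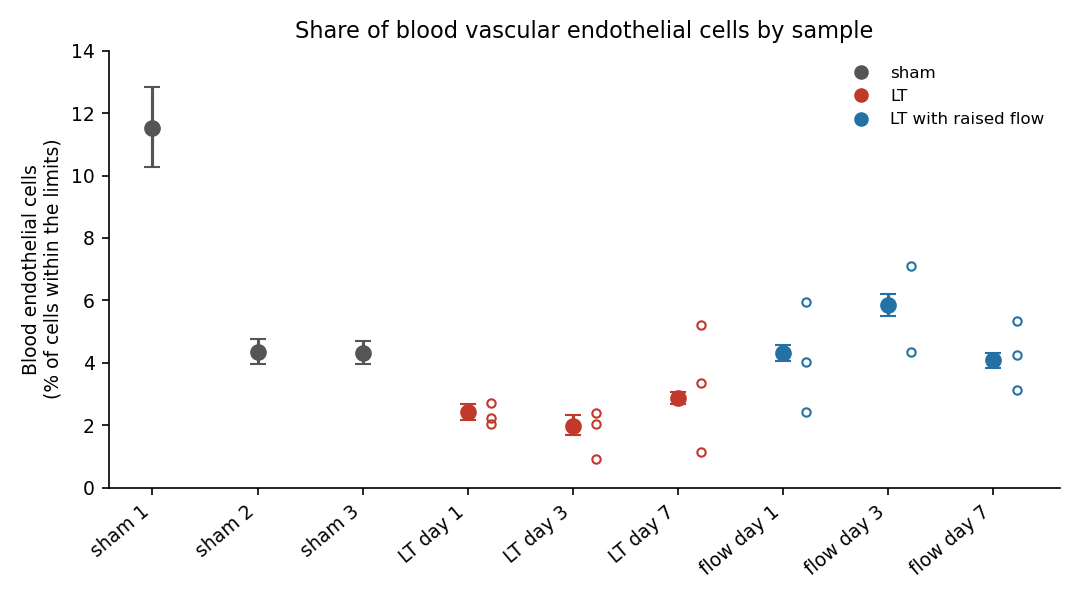
Blood vascular endothelial cells as a percentage of all barcodes within the limits, by sample. Filled points with bars give the sample and its 95% exact binomial interval, and open circles give single libraries of the transplanted samples. The 3 LT samples sit between 1.99% and 2.87%, below the sham samples (4.32% to 11.5%) and the raised flow samples (4.08% to 5.84%).

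Gene expression was then compared between samples with edgeR's quasi-likelihood test on UMIs summed per sample, with Benjamini-Hochberg adjustment over 10382 genes and an adjusted p under 0.05 counted as a change. Fold changes are given as log2 differences ± SE, and levels as CPM in the sham samples 1, 2 and 3 or in days 1, 3 and 7. LT (the mean of 3 days) differed from sham in 236 genes, 2.27% of those tested, of which 168 fell (1.62%) and 68 rose (0.655%). The median over all genes was -0.03. The LT and sham samples did not overlap in 23.9% of all genes, and the rule for named genes required this, so it is no result for them. When scaled by library size only, 247 fell and 56 rose. The count was 25 when the raised flow samples were left out and the day term dropped together. It was 549 without sham 1, 7 without sham 2, 14 without sham 3, and 15, 21 and 16 without LT day 1, 3 or 7. Without LT day 1 library 1 it was 94, and without libraries 2 and 3 of that day 143. No direction of a called gene named here turned under these settings, which the choice of genes without overlap largely fixed in advance.

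Among the genes that fell was Cxcl12. Cxcl12, a chemokine of arterial and capillary endothelium that holds CXCR4-bearing cells, stood at 1534, 886 and 720.0 CPM in sham. In LT it stood at 46.1, 75.1 and 354 CPM (log2 fold change -3.20 ± 0.45, adjusted p = 0.021). Under raised flow it stood at 204, 195 and 330.4 CPM, also below every sham sample. The adjusted p of Cxcl12 was 0.068 without LT day 1 library 1. Cxcl12 was among the leading genes of the capillary-like cluster, as were Clic5, Ptprr, Rgcc and Fabp4. Cytl1 and Pi16 were among those of the arterial-like cluster. Igfbp3, Kcne3, Cxcr4, Tp53i11, Chst1 and Inhbb were among those of the unnamed cluster of 982 cells. Ubd, Cxcl11, Bmp4 and Vcam1 were among those of the largest cluster of 1434 cells. The cluster with the most cells was the capillary-like one in sham 1, the one led by Igfbp3 in LT day 1 and raised flow day 1, and the one led by Ubd in the other samples. Library 1 of both day 1 samples went the other way. There the cluster led by Ubd held more cells than the one led by Igfbp3 (61 against 7 in LT and 40 against 15 under raised flow). For these genes a different mix of cells and a different level in each cell cannot be told apart in the sums per sample.

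A monoamine oxidase and an anion transporter fell as well. Maob, the mitochondrial monoamine oxidase, was 38.5, 42.9 and 66.9 CPM in sham and 3.03, 4.69 and 6.35 CPM in LT (log2 fold change -3.38 ± 0.32, adjusted p = 0.0065). Slco1a4, an organic anion transporter, was 40.1, 52.4 and 64.2 CPM in sham and 5.38, 6.26 and 7.87 CPM in LT (log2 fold change -3.04 ± 0.25, adjusted p = 0.006). The raised flow samples lay between the other groups for both genes, at 20.7, 17.9 and 19.7 CPM for Maob and 13.2, 17.7 and 24.6 CPM for Slco1a4. The calls of Maob and Slco1a4 held under all 23 alternative settings. Cytl1, a small secreted protein, was 49.3, 39.7 and 15.4 CPM in sham and 3.03, 0 and 2.57 CPM in LT (log2 fold change -4.29 ± 0.57, adjusted p = 0.017).

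The other named genes that fell were Pi16, Clic5, Tmem150c, Ptprr, the leptin receptor Lepr and Mal, with log2 fold changes from -2.97 (Pi16) to -2.47 (Mal). Pi16, Clic5, Tmem150c and Mal lost the call in 8 to 11 of 23 alternative settings each, while Lepr kept it in 19.

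Shear-responsive genes fell in part. Of 15 tested, Klf4, Thbd and Cyp1a1 fell, none rose, and the median was -0.70. With both arms averaged at day 1, 1 gene of this list was higher than in sham (Nos3) and 1 lower (Cav1). Klf4 and Thbd were not called in that comparison. Klf4 was 884, 874 and 928 CPM in sham and 385, 107 and 363 CPM in LT (log2 fold change -1.77 ± 0.35, adjusted p = 0.036). Its level under raised flow was 487, 536 and 519 CPM, between the sham and the LT samples, and the difference between raised flow and LT did not pass the test (log2 fold change 1.03 ± 0.35, adjusted p = 0.53). Thbd, which turns thrombin into an activator of the anticoagulant protein C, was 335, 340.0 and 430.5 CPM in sham and 89.8, 111 and 171 CPM in LT (log2 fold change -1.58 ± 0.29, adjusted p = 0.032). Cyp1a1 had only 3 UMIs in LT against 12 in sham, 9.77 times lower in CPM with a 95% counting interval of 2.64 to 54.0. Klf2 was 318, 31.5 and 21.9 CPM in sham and 48.8, 39.1 and 47.7 CPM in LT, with sham 1 far above every other sample (log2 fold change -1.41 ± 0.85, adjusted p = 0.35, and 0.80 without sham 1). The calls of Klf4 and Thbd held in 14 and 16 of 23 alternative settings, and that of Cyp1a1 in 6 of the 14 in which it was tested.

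Flt1 and 4 genes of the TGF-beta and BMP list fell as well. Flt1, a decoy receptor for VEGF, was the only called gene of 9 receptors for VEGF, angiopoietins and related ligands, at 718, 688 and 749 CPM in sham and 301, 282 and 253 CPM in LT (log2 fold change -1.37 ± 0.17, adjusted p = 0.014). Of 19 TGF-beta and BMP genes 4 fell and none rose (median -0.63), namely Bmp4 (-1.63), Tgfb2 (-1.59), the latent TGF-beta binding protein Ltbp4 (-1.28) and the co-receptor Tgfbr3 (-0.97). Their calls held in 14, 16, 10 and 13 of 23 alternative settings. Bmp4 was 37.8, 66.2 and 79.5 CPM in sham and 17.8, 24.0 and 18.0 CPM in LT. The endothelial transcription factors Gata2 (-0.95) and Klf4 fell out of 18, the immediate early genes Egr1 (-1.58) and Zfp36 (-1.52) out of 15 with a median of -1.16, and lipoprotein lipase (Lpl, -1.27) out of 11 lipid-handling genes. The calls of Gata2 and Egr1 held in only 11 of 23 alternative settings each. Ptgs1, the constitutive cyclooxygenase, fell (-1.13), as did the adhesion molecule Jam3 (-1.46) and Sparcl1 (-1.08).

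**Figure D2:**
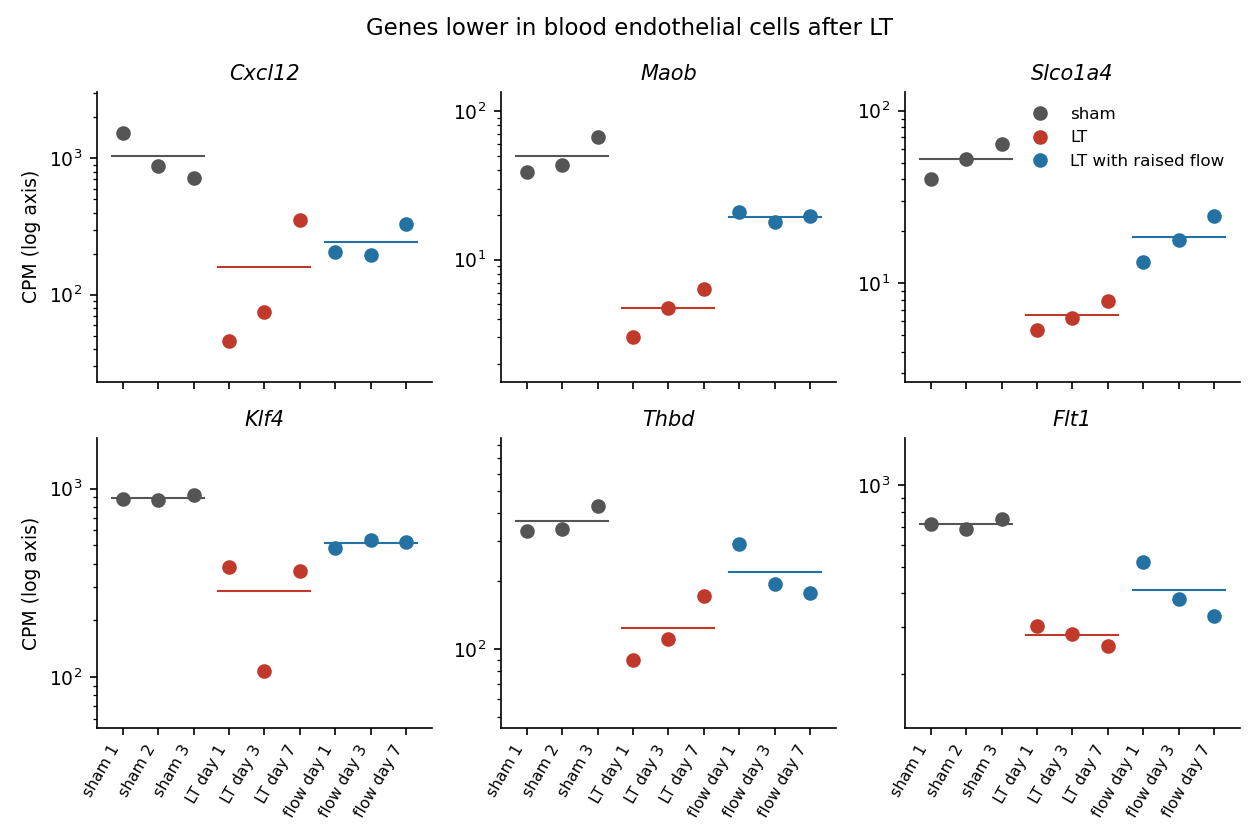
Levels of 6 genes in the blood vascular endothelial cells of each sample, in CPM on a log axis, with a line at the mean of each group. The 3 LT samples lie below the 3 sham samples for each gene, and the raised flow means lie between those of sham and LT.

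The capillary genes gave low values without a call. None of the 6 tested passed, with a median of -1.45. Rgcc was 2762, 543 and 426 CPM in sham and 135, 173 and 277 CPM in LT (log2 fold change -2.73 ± 0.65, adjusted p = 0.062), and Fabp4 was 6904, 3247 and 2639 CPM in sham and 308, 1716 and 3654 CPM in LT (log2 fold change -1.62 ± 0.56, adjusted p = 0.13). Sham 1 was highest for both genes. Without it the log2 difference was -1.36 for Rgcc, which then passed edgeR's test (adjusted p = 0.01), and -1.07 for Fabp4 (adjusted p = 0.22). The LT samples of Rgcc did not reach any sham sample, a lack of overlap seen in 23.9% of all genes, while those of Fabp4 overlapped. No gene of the Notch (11 tested), junction (13), cell cycle (20) or endothelial-to-mesenchymal (15) lists was called in LT against sham. Of 11 arterial genes tested, Cxcl12 alone was called.

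Igfbp3, Kcne3 and Inhbb were among the genes that rose after LT. Igfbp3, an insulin-like growth factor binding protein induced by hypoxia, was 272, 245 and 391.5 CPM in sham and 3835, 1551 and 590.1 CPM in LT (log2 fold change 2.48 ± 0.49, adjusted p = 0.038). Kcne3, a potassium channel subunit, was 10.8, 8.83 and 14.3 CPM in sham and 131, 68.9 and 26.3 CPM in LT (log2 fold change 2.51 ± 0.46, adjusted p = 0.033). Inhbb, the beta B subunit of activin, was 12.3, 5.68 and 9.32 CPM in sham and 81.7, 48.5 and 25.4 CPM in LT (log2 fold change 2.39 ± 0.44, adjusted p = 0.032).

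The high day 1 value of Igfbp3 and Kcne3 came from libraries 2 and 3 of LT day 1. Igfbp3 was 338, 8342 and 7052 CPM in libraries 1, 2 and 3 of that day, and Kcne3 was 11.4, 244 and 266 CPM. In the same libraries 53 of 65 and 47 of 83 cells belonged to the cluster led by Igfbp3 and Cxcr4, against 7 of 186 in library 1. Without libraries 2 and 3, the log2 difference between LT and sham was 1.35 for Igfbp3 (adjusted p = 0.21 by edgeR), 1.52 for Kcne3 (0.19) and 1.98 for Inhbb (0.11). Without library 1 instead, the adjusted p was 0.063 for Igfbp3 and 0.057 for Kcne3. The tip cell genes Cxcr4 and Apln showed the same split between libraries, at 33.5, 559 and 571 CPM and 9.48, 683 and 237 CPM. The labels name no difference between these libraries, and its part in the result was not tested.

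**Figure D3:**
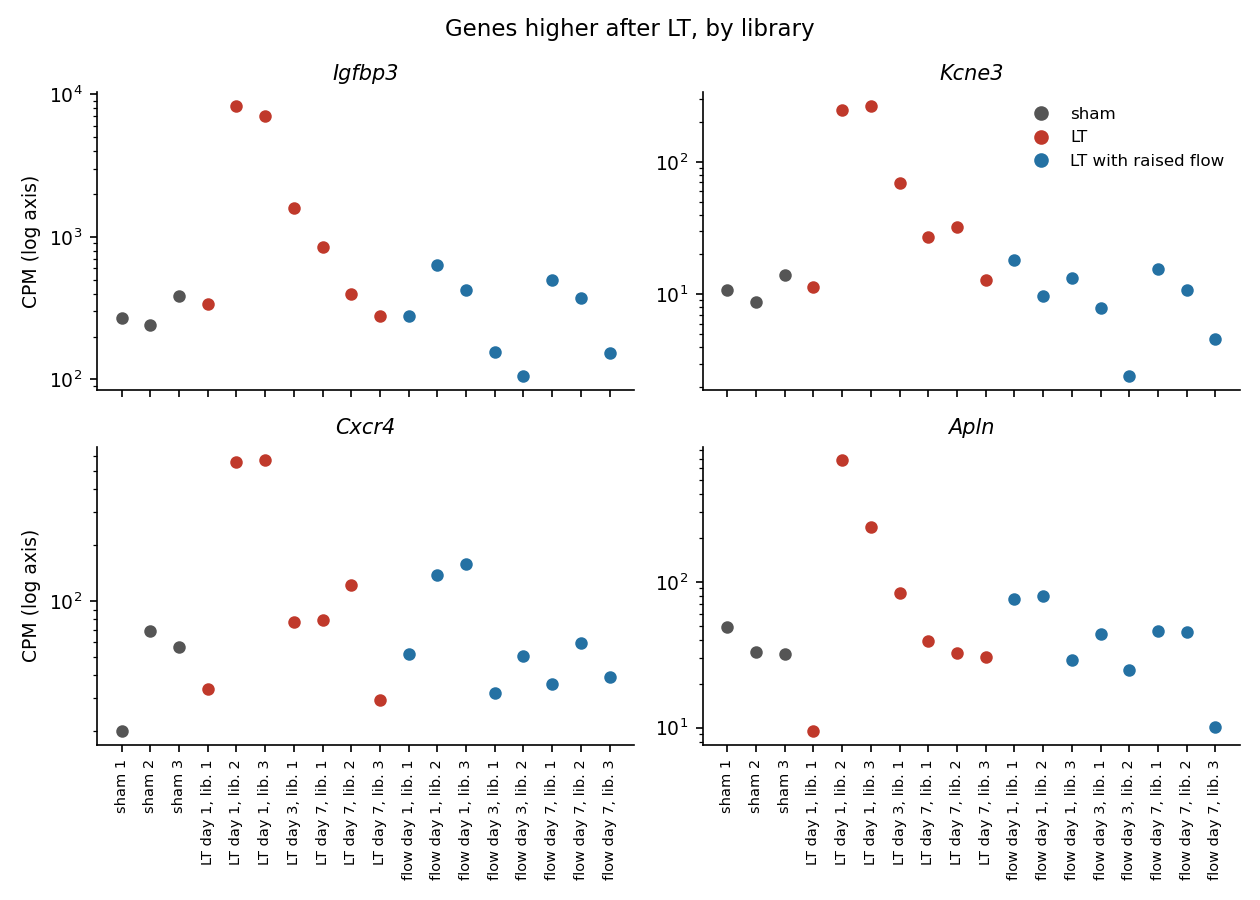
Igfbp3, Kcne3, Cxcr4 and Apln in the blood vascular endothelial cells of each library with at least 20 cells, in CPM on a log axis. Libraries 2 and 3 of LT day 1 lie above every other library for the 4 genes, while library 1 of that day lies within the range of the sham libraries for Igfbp3, Kcne3 and Cxcr4 and is the lowest of all for Apln.

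A lysosomal gene rose too. The lysosomal protease Lgmn was 28.5, 31.5 and 42.2 CPM in sham and 141, 136 and 93.8 CPM in LT (log2 fold change 1.83 ± 0.21, adjusted p = 0.011), a call kept in 21 of 23 alternative settings. Srpx2, Serpinb6b, Tp53i11 and Chchd6 rose by 1.65 to 2.06 on the log2 scale. Tp53i11 lost the call without LT day 1 libraries 2 and 3 (adjusted p = 0.39). The glycolytic enzyme Pgk1 rose (1.24) as the only called gene of 18 hypoxia genes, whose median was 0.44. Cxcl11 rose as well (3.91), with the high values at days 3 and 7. Tnnt2, the cardiac troponin T gene, rose by 2.71 (1.54, 4.42 and 2.19 CPM in sham and 16.1, 9.39 and 35.1 CPM in LT), but the call was lost without the clusters led by other cells (1.64, adjusted p = 0.095) and without LT day 7 library 2 (2.17, 0.081).

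To separate early from late changes, both transplanted arms were averaged by day and compared with the same sham samples, which therefore enter each of these comparisons. At day 1, 434 genes differed (4.18%), 238 lower (2.29%) and 196 higher (1.89%). Leaving out sham 2 gave 0 calls by edgeR's quasi-likelihood test (2201 with an unadjusted p under 0.05). Leaving out sham 3 gave 15, of which 14 were among the 434, LT day 1 gave 6 (2 among them) and raised flow day 1 gave 1 (0 among them). Scaling by library size only moved the median of all genes at day 1 from -0.05 to -0.16 and gave 224 lower and 72 higher. At day 7, 80 genes differed (0.771%), 55 higher (0.53%) and 25 lower (0.241%, and 63 and 52 by library size only), with 7 calls without sham 2, 14 without sham 3, 3 without LT day 7 and 9 without raised flow day 7. Day 7 differed from day 1 in 227 genes (2.19%), 154 higher (1.48%) and 73 lower (0.703%, and 174 and 37 by library size only). Without raised flow day 1 no gene passed by edgeR's quasi-likelihood test (1399 with an unadjusted p under 0.05), while 51 passed without LT day 1, 22 without LT day 7, 40 without raised flow day 7 and 98 without LT day 1 libraries 2 and 3. Day 1 and day 7 rest on 2 samples each, from different arms.

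At day 1 the angiogenic genes Cxcr4, Angpt2 and Chst1 rose (3 of 12 tested, median 1.13). Without LT day 1 libraries 2 and 3 none of the 3 passed, with log2 differences of 0.74, 1.05 and 0.90 (edgeR adjusted p = 0.48, 0.15 and 0.25). Cxcr4, the receptor of Cxcl12, was 20.03, 70.0 and 57.6 CPM in sham, 293 CPM in LT day 1 and 125 CPM in raised flow day 1 (log2 fold change 1.95 ± 0.39, adjusted p = 0.033). Angpt2, the angiopoietin that loosens vessels, was 10.0, 18.3 and 30.2 CPM in sham, 84.4 CPM in LT day 1 and 49.1 CPM in raised flow day 1 (log2 fold change 1.696 ± 0.36, adjusted p = 0.039). The glycolytic genes Pgk1 (1.74) and Eno1 (1.45) rose out of 18 hypoxia genes. The endothelial nitric oxide synthase Nos3 rose from 80.9, 75.7 and 89.9 CPM in sham to 173 CPM in LT day 1 and 276 CPM in raised flow day 1 (log2 fold change 1.43 ± 0.22, adjusted p = 0.023). It was 95.9 and 104 CPM at day 7, lower than at day 1 (log2 fold change -1.15 ± 0.24, adjusted p = 0.047). Caveolin 1 (Cav1) did the reverse, lower at day 1 (-1.27) and higher at day 7 than at day 1 (1.21).

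Pgk1 and Eno1 stood higher at day 1 than at days 3 and 7 of the same arm. Pgk1 was 219.6, 303 and 262 CPM in sham, 1219.6, 587 and 318 CPM at days 1, 3 and 7 of LT and 612, 360.0 and 334 CPM under raised flow, and it was lower at day 7 than at day 1 (log2 fold change -1.39 ± 0.29, adjusted p = 0.047). Eno1 was 189, 289.5 and 286 CPM in sham, 928, 481 and 274 CPM in LT and 513, 312 and 322 CPM under raised flow. In both arms the day 7 values of the 2 genes lay near the highest sham value. The order was different for Pfkfb3, which raises glycolytic flux. It was 26.9, 72.0 and 71.1 CPM in LT and 19.0, 251 and 134 CPM under raised flow. Vegfa, the ligand of Kdr and Flt1, was 28.5, 26.5 and 45.0 CPM in sham, 117, 4.69 and 22.7 CPM in LT and 32.6, 40.0 and 12.2 CPM under raised flow and passed no test.

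Other genes that rose at day 1 were Inhbb (3.02), Lgmn (1.84), Dnph1 (2.53), the urokinase receptor Plaur (1.59) and the selenoprotein Msrb1 (0.99). The call of Plaur held in 13 of 22 alternative settings, with a log2 difference as low as 0.79, and that of Msrb1 in only 10. Serpinb1a (3.31), Tst (2.62), Gpr182 (2.40) and Kcnj8 (2.23) also passed the test, but lost the call without the clusters led by mural, liver sinusoidal or leukocyte genes, with adjusted p = 0.24, 0.21, 0.062 and 0.081. Mnda (2.78), a myeloid nuclear antigen, was too rare to be tested without them.

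Genes that fell at day 1 included Cxcl12 (-3.33), Cytl1 (-3.24), Ptprr (-3.05), Pi16 (-2.94) and Slco1a4 (-2.66). Hmcn1, a basement membrane component, was 95.5, 88.9 and 80.6 CPM in sham, 11.8 CPM in LT day 1 and 14.3 CPM in raised flow day 1 (log2 fold change -2.75 ± 0.23, adjusted p = 0.0079). The leukotriene receptor Cysltr1 was 48.5, 48.6 and 64.2 CPM in sham and 6.39 and 9.70 CPM at day 1 (log2 fold change -2.77 ± 0.27, adjusted p = 0.011). Gata2 (-1.28), Tgfbr2 (-1.78), Vcam1 (-1.91) and Cd34 (-1.55) fell as well. Erg, a transcription factor that holds endothelial identity, fell too (-0.96), a call kept in only 8 of 22 alternative settings.

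Several of these genes stood higher at day 7 than at day 1. Cav1, the coat protein of caveolae, was 764, 767 and 814 CPM in sham, 247, 624 and 706 CPM in LT and 416, 623 and 793 CPM under raised flow. Vcam1, which binds integrins of lymphocytes and monocytes, was 31.6, 54.3 and 59.2 CPM in sham, 7.40, 41.7 and 57.8 CPM in LT and 23.2, 239 and 140.2 CPM under raised flow. Cx3cl1, a membrane-bound chemokine, was 37.0, 46.7 and 58.7 CPM in sham, 6.73, 16.2 and 32.7 CPM in LT and 20.6, 126 and 77.1 CPM under raised flow. Scarb1, the receptor for high-density lipoprotein, was 334, 259 and 316 CPM in sham, 107, 170.0 and 224 CPM in LT and 197, 182 and 383 CPM under raised flow, and fell at day 1 (log2 fold change -1.05 ± 0.24, adjusted p = 0.044). Both day 1 samples lay below all sham samples for these 4 genes, and day 1 and sham did not overlap in 40.3% of all genes.

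The selectins and Icam1, which slow and stop leukocytes on the vessel wall, passed no test. Sele was 124, 63.1 and 152 CPM in sham, 24.6, 38.6 and 51.7 CPM in LT and 105, 159 and 75.4 CPM under raised flow. Selp was 102, 263 and 369 CPM in sham, 97.5, 125 and 140.3 CPM in LT and 315, 359 and 154 CPM under raised flow, and Icam1 was 88.6, 283 and 289 CPM in sham, 96.2, 79.8 and 148 CPM in LT and 293, 353 and 199 CPM under raised flow. The LT samples of Sele lay below all sham samples, while those of Selp and Icam1 overlapped sham. LT and sham did not overlap in 23.9% of all genes. The proliferation genes Mki67 (0, 31.5 and 36.2 CPM in sham, 9.42, 66.8 and 28.9 in LT, 19.1, 20.2 and 32.9 under raised flow) and Top2a (1.54, 48.6 and 40.0 CPM in sham, 7.74, 125 and 39.3 CPM in LT and 20.6, 23.2 and 39.2 CPM under raised flow) were lowest in sham 1 and overlapped between groups.

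Some genes induced by interferon were lower at day 1 than in sham. Tnfsf10 (TRAIL) was 88.6, 75.7 and 80.1 CPM in sham and 9.75 and 11.3 CPM at day 1 (log2 fold change -2.98 ± 0.33, adjusted p = 0.011). The interferon-inducible GTPases Igtp (-2.74) and Ifi47 (-2.77) and the factor Irf1 (-2.06) fell too. Of 18 interferon genes, 2 (Ifit2 and Parp14) were lower at day 1 than in sham and none higher, with a median of -1.16.

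Of the 18 interferon genes, 8 were higher at day 7 than at day 1 (among them Ifit2, Mx1, Stat2, Gbp2, Gbp5, Bst2 and Parp14) and none lower, with a median of 2.38 against 0.02 over all genes. Against sham, 3 were higher at day 7, among them Gbp2 and Gbp5. Gbp5, a guanylate-binding protein, was 13.1, 24.6 and 20.3 CPM in sham, 6.05, 119 and 153 CPM in LT and 13.1, 789 and 377 CPM under raised flow (log2 fold change 4.84 ± 0.46, adjusted p = 0.0021 for day 7 against day 1). In each arm the step lay between day 1 and day 3. Tnfsf10 followed the same course, at 144 and 225 CPM at day 7 (log2 fold change 4.13 ± 0.35, adjusted p = 0.0017).

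Of 18 chemokines and cytokines, 4 were higher at day 7 than at day 1 and none lower (median 0.78). Cxcl9 and Cxcl11, which recruit CXCR3-bearing T cells, were among them. Cxcl9 was 6.16, 114 and 148 CPM in sham, 8.07, 1069 and 1562 CPM in LT and 13.96, 7434 and 3544 CPM under raised flow (log2 fold change 7.86 ± 1.23, adjusted p = 0.016). Cxcl11 was 2.31, 7.57 and 10.4 CPM in sham, 3.36, 474 and 784 CPM in LT and 11.6, 4936 and 2321 CPM under raised flow, and it was called both against day 1 (log2 fold change 7.89 ± 0.66, adjusted p = 0.0017) and against sham (log2 fold change 7.62 ± 0.55, adjusted p = 0.001). Ubd, a ubiquitin-like modifier induced by interferon gamma, was 0, 9.46 and 8.77 CPM in sham, 1.68, 276 and 803 CPM in LT and 1.76, 3379.8 and 1879.8 CPM under raised flow (log2 fold change 9.94 ± 1.12, adjusted p = 0.004). Apol11a, an apolipoprotein L gene, rose by 4.32 on the log2 scale. Cxcl10 was 40.8, 666 and 778 CPM in sham, 86.8, 1139 and 1134 CPM in LT and 42.6, 5629 and 1663 CPM under raised flow but passed no test (log2 fold change 4.30 ± 1.20, adjusted p = 0.099). The fractalkine gene Cx3cl1 (2.15) and Csf1 (1.69) rose from day 1 to day 7, and so did the adhesion molecule Vcam1 (2.81).

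Some of the genes that rose were at or near 0 early on, so bounds or ratios with counting intervals are given. Ido1, which degrades tryptophan, had 444 UMIs at day 7 and none in sham or at day 1, which is at least 99.9 times higher than at day 1 and at least 48.1 times higher than in sham when 3 UMIs are taken as the limit for a group with none. Gbp1 had 841 UMIs at day 7 and 2 at day 1, a ratio of 284 with a 95% counting interval of 78.3 to 2347. Ciita, the master regulator of MHC class II, had 48 UMIs at day 7 and none at day 1 (at least 10.8 times higher). Of these UMIs, 45 came from raised flow day 7 and only 3 from LT day 7, so the bound rests almost wholly on the raised flow sample. The profile of near-empty droplets could account for 41.6% of the Ciita UMIs in LT and 5.09% under raised flow.

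Antigen presentation genes were also higher at day 7. Of 10 MHC class I genes tested, B2m, Tap1, Psmb8, Psmb9 and RT1-A2 were higher at day 7 than at day 1 (5 higher, none lower, median 1.92), and Tap1, Psmb8, Psmb9 and RT1-A2 were also higher than in sham. B2m was 6379.9, 7446 and 7375 CPM in sham, 4329, 6835 and 12939 CPM in LT and 4084, 20934 and 18496 CPM under raised flow. Of 6 class II genes, Ciita, RT1-Db1 and RT1-Bb were higher at day 7 than at day 1 (median 4.19, or 4.01 with Ciita at its bound), and RT1-Da, RT1-Db1 and RT1-Bb were higher than in sham (median 4.16). RT1-Da was 43.9, 33.4 and 29.6 CPM in sham, 51.1, 98.6 and 421 CPM in LT and 12.6, 560.1 and 755 CPM under raised flow (log2 fold change 3.997 ± 0.72, adjusted p = 0.047 against sham). Cd74, the invariant chain, was 54.7, 58.0 and 36.2 CPM in sham, 95.9, 177 and 716 CPM in LT and 19.5, 1628 and 1739 CPM under raised flow and passed no test (log2 fold change 3.99 ± 1.05, adjusted p = 0.084).

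Members with full values show the size of the change. Psmb9, a subunit of the immunoproteasome, was 280.5, 291 and 249.5 CPM in sham, 193, 718 and 924 CPM in LT and 166, 1685 and 1363 CPM under raised flow (log2 fold change 2.60 ± 0.33, adjusted p = 0.0071 for day 7 against day 1). RT1-Bb, a class II beta chain, was 13.9, 8.20 and 4.94 CPM in sham, 6.39, 20.9 and 148 CPM in LT and 2.50, 173 and 289 CPM under raised flow. Ccl5, a chemokine that T cells also make, was 2.31, 2.52 and 2.19 CPM in sham, 34.3, 13.6 and 75.2 CPM in LT and 3.38, 27.8 and 93.5 CPM under raised flow and was higher at day 7 than in sham (log2 fold change 5.20 ± 0.89, adjusted p = 0.04). The profile of near-empty droplets could account for 152% of its UMIs in sham, 86.2% in LT and 80.1% under raised flow, so most of the Ccl5 counts cannot be told apart from free RNA. The summed T, NK and B cell genes were also highest at day 7, at 33.3 CPM in LT and 36.3 CPM under raised flow, and their part in the Ccl5 result was not tested.

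The class II genes carried more free RNA than Cxcl9. The profile of near-empty droplets could account for 169% of the RT1-Da UMIs in sham, 43.4% in LT and 28.1% under raised flow, but for at most 0.319% of the Cxcl9 UMIs in any group. The sham level of RT1-Da is therefore at the background. In sham the same share was 151% for RT1-Db1, 127% for RT1-Bb, 104% for Cd74 and 94.5% for RT1-Ba. The class II differences from sham, and their median, thus rest on sham levels near the background. RT1-Db1 kept the call against sham at day 7 in only 12 of 22 alternative settings. LT day 7 was split by library, with RT1-Da at 589, 33.8 and 787 CPM and Cd74 at 986, 44.5 and 1409 CPM in libraries 1, 2 and 3. Without library 2 the day 7 difference of RT1-Da from sham was 4.29. RT1-Da lost the call in 8 of 22 alternative settings, among them without sham 2, sham 3, LT day 7, raised flow day 7 or LT day 1 libraries 2 and 3.

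**Figure D4:**
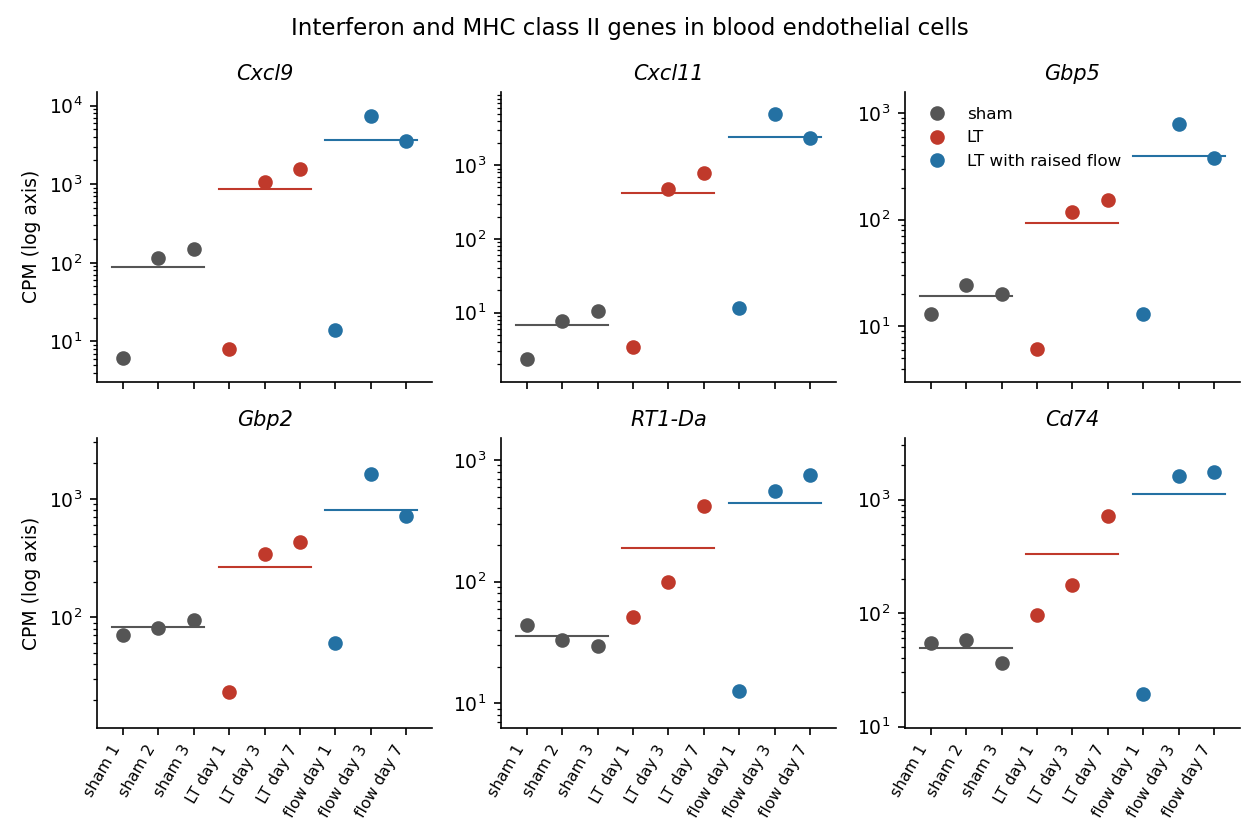
Interferon-induced chemokines and GTPases and MHC class II genes in the blood vascular endothelial cells of each sample, in CPM on a log axis, with a line at the mean of each group. In both transplanted arms days 3 and 7 lie above day 1 for the 6 genes, and the raised flow samples of days 3 and 7 lie above the LT samples of the same days.

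Other genes were lower at day 7 than at day 1. Npw, a neuropeptide precursor, was 80.9, 184 and 128 CPM in sham, 399 and 241 CPM at day 1 and 55.7 and 43.6 CPM at day 7 (log2 fold change -2.64 ± 0.38, adjusted p = 0.011). Creld2, an endoplasmic reticulum chaperone, was 26.2, 28.4 and 29.6 CPM in sham and reached 99.6 and 95.1 CPM at day 1 before 33.3 and 26.4 CPM at day 7 (log2 fold change -1.71 ± 0.20, adjusted p = 0.0042). Dnph1, Thop1, Ifrd2, Mpp6, Tmem97, Armc6 and the ribosome biogenesis factor Mybbp1a fell by 1.59 to 2.26 on the log2 scale. Serpinb1a fell by 2.56, a call that was lost without the clusters led by other cells (adjusted p = 0.50).

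Some genes were below sham at day 7 with both arms averaged. Besides Cytl1 (-3.14), Maob (-2.17), Slco1a4 (-1.90) and Hmcn1 (-1.48), the membrane enzymes Enpep (-2.03) and Alpl (-1.996), the nucleoside transporter Slc29a1 (-1.53), Lbp, Myrip, Tf and Flt1 (-1.31) were lower than in sham. Alpl was 93.2, 80.1 and 105 CPM in sham, 23.2, 14.6 and 13.9 CPM in LT and 26.5, 26.6 and 36.7 CPM under raised flow. The complement protease C1s was higher (log2 fold change 3.55 ± 0.63, adjusted p = 0.044). The profile of near-empty droplets could account for 130% of its UMIs in sham, so its sham level is at the background. C1s lost the call in 7 of 22 alternative settings, with log2 differences from 3.07 to 7.15. Without LT day 1 library 1, which enters this fit through the day 1 and spread estimates, none of Cytl1, Maob, Slco1a4, Alpl and Hmcn1 passed (adjusted p 0.089 to 0.14 by edgeR).

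Raised flow was compared with LT within days. Of 10382 genes 1 passed (0.00963%), while 876 had an unadjusted p under 0.05, and DESeq2 called 36. The gene that passed, Igh-6, is an immunoglobulin heavy chain gene of B cells, and it stood at 927 CPM in library 1 of raised flow day 7 and at 0 in libraries 2 and 3. It was no longer called without high doublet scores. No other gene passed by edgeR's quasi-likelihood test in this fit.

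The values of genes that had moved after LT are given side by side. Igfbp3 stood at 3835, 1551 and 590.1 CPM in LT and 447, 126 and 357 CPM under raised flow (log2 fold change -2.53 ± 0.52, adjusted p = 0.28). DESeq2 gave it an adjusted p of 2.4e-05, and without LT day 1 libraries 2 and 3 the log2 difference was -1.23 (adjusted p = 0.60 by edgeR). The adjusted p ranged up to 0.99 when a day 3 sample was left out. Ptgs1 was 43.1, 38.5 and 39.5 CPM in sham, 14.8, 19.3 and 21.6 CPM in LT and 32.0, 39.0 and 42.5 CPM under raised flow, without passing (log2 fold change 1.03 ± 0.17, adjusted p = 0.15). Vcam1, given above by sample, differed from LT by 1.81 ± 0.30 on the log2 scale (adjusted p = 0.15), and Cxcl11 by 2.32 (adjusted p = 0.22). No list had a called member in this edgeR fit, while Igfbp3, Ptgs1, Vcam1 and Cxcl11 passed in 4, 3, 2 and 2 of 24 alternative settings. The list medians were 0.45 for the 15 shear-responsive genes, 0.88 for the 18 chemokines and cytokines, 0.87 for the 6 class II genes and -0.61 for the 12 angiogenic genes, against 0.00 over all genes. The shear-responsive median was not particular to its list. It was also 0.45 for the 15 immediate early genes and 0.66 for the 8 mural genes, while the 18 hypoxia genes had -0.29.

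**Figure D5:**
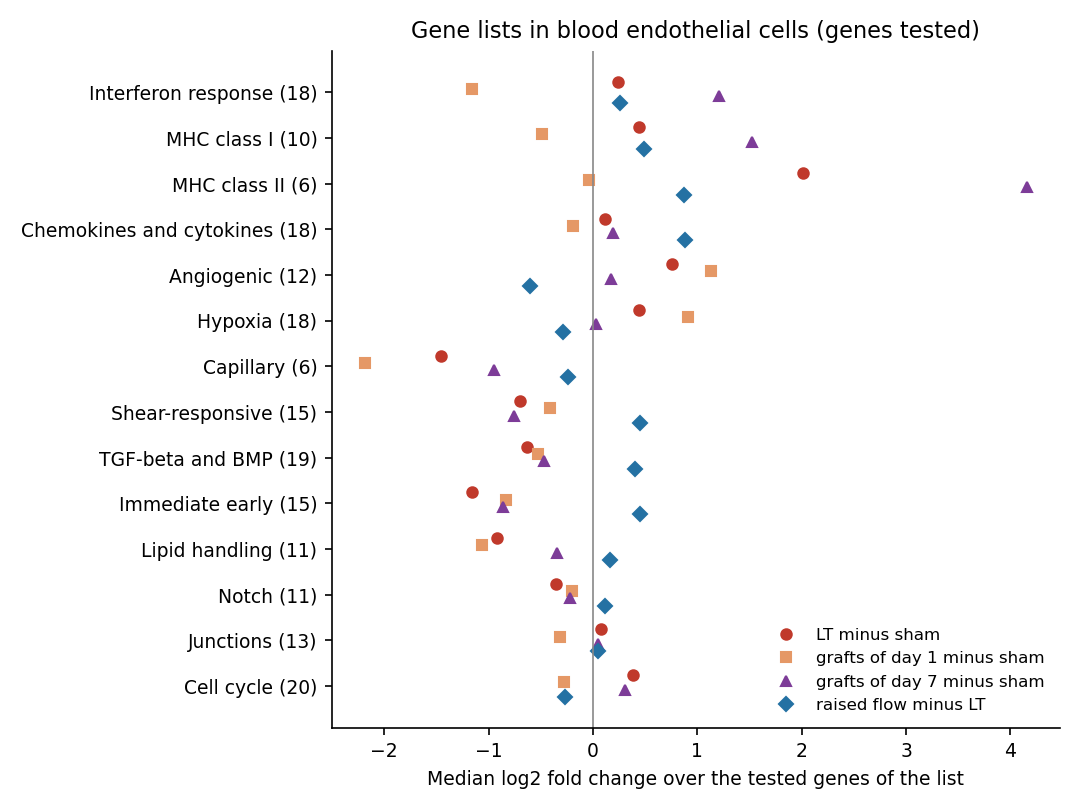
Median log2 fold change over the tested genes of 14 lists in 4 comparisons of the blood vascular endothelial cells, with the number of genes tested in brackets. MHC class II lies at 4.16 and interferon at 1.21 for day 7 against sham, while the capillary list lies at -2.18 for day 1, and the raised flow medians stay between -0.61 and 0.88.

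The LT effect was also compared with that in mural cells, the pericytes and smooth muscle cells of the same vessels (1145 cells), by testing the difference of the effects itself. It differed in 73 of 10391 genes (0.703%), 25 with a higher and 48 with a lower value in the endothelium, against 33 and 33 when scaled by library size only. The 73 include Plvap, a gene of the rule that selected the members, so its call is no result. The effect within each cell type comes from a separate fit and the difference from a joint one, so they do not subtract exactly. Igfbp3 had a log2 difference of 2.48 in the endothelium and -1.06 in mural cells (difference 3.10 ± 0.52, adjusted p = 0.0012 by edgeR). Angpt2 differed by 2.20 ± 0.46 (adjusted p = 0.012) and RT1-Da by 2.07 ± 0.46 (0.021). Nrp1, a co-receptor of VEGF, had a log2 difference of -1.32 in the endothelium and 0.16 in mural cells (difference -1.66 ± 0.36, adjusted p = 0.019). Il6 (-1.66 against 1.16 in mural cells) and Nfkbia (-0.59 against 1.01) differed in the same direction. Without LT day 1 libraries 2 and 3 the count was 44, and Igfbp3 (difference 2.21, adjusted p = 0.12), Nrp1 (-1.48, 0.13) and Il6 (-2.01, 0.078) no longer passed edgeR's test. Without LT day 1 library 1 RT1-Da did not pass (1.12, 0.38). The profile of near-empty droplets could also account for 169% of the RT1-Da UMIs in sham endothelium. Mural cells numbered only 29, 33 and 45 in the sham samples.

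Against lymphatic endothelial cells (668 cells), the LT effect differed in 61 of 10146 genes (0.601%), 40 higher and 21 lower in blood endothelium. LT day 3 was left out of this fit because it held only 12 lymphatic cells, whereas the effects given for blood endothelium alone rest on all 9 samples and do not subtract exactly. Fabp5, a fatty acid binding protein, had a log2 difference of -1.29 in blood endothelium and 2.39 in lymphatic endothelium (difference -4.06 ± 0.40, adjusted p = 1.1e-10). Fabp4 (-2.82 ± 0.59, adjusted p = 0.0051) and Rgcc (-2.55 ± 0.62, 0.026) differed likewise. The basement membrane genes Lama4 (2.03 ± 0.43, adjusted p = 0.0051) and Col18a1 (1.66 ± 0.33, 0.0025) differed in the other direction. The neutrophil chemokine Cxcl2 also did (2.51 ± 0.35, adjusted p = 3.0e-06), but near-empty droplets could account for 61.6% of its UMIs in blood endothelial cells of sham, 57.4% in LT and 59.3% under raised flow, and it was among the leading genes of the cluster of 87 cells with leukocyte genes.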

How the data were processed

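The deposited matrices hold whole-number UMI counts per gene and barcode, which the authors made from 10x 3' libraries of dissociated rat bile duct. The submitters' processing notes name Cell Ranger 5.0.1 and Seurat 3.2.0, and the matrix headers name another Cell Ranger release. The genome build was not given in the sources used here, and features were joined by gene symbol. All barcodes were tested by the rule in the text, and the members and gene lists were chosen with earlier results of these data known.

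Member counts were summed by sample. edgeR 4.0.16 (quasi-likelihood test, TMM scaling, filterByExpr) was fitted to 9 samples with a model of 5 columns (sham, day 1, day 3, day 7 and raised flow), which leaves 4 residual degrees of freedom, with Benjamini-Hochberg adjustment over all genes tested. LT against sham is the mean of the 3 day columns less sham. Raised flow against LT is paired by day. Differences between cell types came from 1 model over both sets of sums with a term for each sample (the sample as block), cell type, and cell type by the days and raised flow. A gene was named when its adjusted p was under 0.05, its samples did not overlap, it reached 20 CPM in the higher group and under 50% of its UMIs there were expected from near-empty barcodes (at most 100 UMIs). The 10 highest and 10 lowest were named, besides list members. Rule, hemoglobin, mitochondrial and ribosomal genes were left out of the naming but not of the fits. Clusters came from 2000 variable genes, 20 principal components and Leiden at resolution 0.6, and doublets were scored but kept. Levels per library have their own scaling factors and so differ slightly from levels per sample. The fit was also run on simulated counts, and the outcome is not reported here. Alternatives were DESeq2 1.42.0, other scalings and filters, stricter cells, free RNA subtracted and samples or libraries left out. The labels give no pairing of libraries beyond the day. Results for some named genes are not reported here.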

Additional observations from a re-analysis of the deposited data

Results flagged for a closer look

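The effect of LT (LT minus sham, log2) differed between blood vascular endothelial cells and mural cells in 73 genes by edgeR's test of the difference itself, and between blood and lymphatic endothelial cells in 61 genes. The 73 include Plvap, a gene of the rule that selected the members. With library size only as scaling the counts were 66 and 48. Given here are genes of the lists, without Plvap and without Ramp3 and Ube2c, which had at most 3 UMIs in a group. Among these list genes, the endothelial effect lay below the mural one for Ccl21 (-5.79), Cyp1b1 (-2.94), Il6 (-2.81), Lamb1 (-2.04), RT1-CE10 (-1.80), Nfkbia (-1.74), Fabp5 (-1.68), Nrp1 (-1.66), Plat (-1.61) and Ier3 (-1.24). It lay above the mural one for Msrb1 (1.69), RT1-Da (2.07), Angpt2 (2.20) and Igfbp3 (3.10). The named genes Enpep and Srpx2, outside these lists, were also among the 73. Without LT day 1 libraries 2 and 3 their differences were -3.95 and 5.43. Ccl21 is a lymphatic chemokine. In blood endothelium it had 35, 2073 and 1377 UMIs in sham 1, 2 and 3 and 20, 4 and 225 in LT days 1, 3 and 7. Its sham level thus rests on sham 2 and sham 3, where the summed lymphatic genes were also highest. Near-empty droplets could account for 35.3% of its UMIs in LT. The part of lymphatic RNA in the Ccl21 difference was not tested. Igfbp3, Nrp1, Il6, RT1-CE10 and Ier3 did not pass without LT day 1 libraries 2 and 3, and RT1-Da, Cyp1b1, Lamb1, Plat and Ier3 did not pass without library 1 of that day.

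Against lymphatic endothelium, again among list genes only, the blood endothelial effect was lower for Fabp5 (-4.06), Gpx3 (-3.14), Fabp4 (-2.82), S100a4 (-2.60), Rgcc (-2.55), Id1 (-1.43) and Hspa1b (-1.41). It was higher for Cxcl1 (1.56), Col18a1 (1.66), Ltbp4 (1.95), Lama4 (2.03), Cxcl2 (2.51), Tagln (3.87) and Tgfbi (4.01). Tagln was a leading gene of the cluster of 686 cells with mural markers, at 1227 CPM against 18.2 CPM in the other members. These cells were kept in this fit, and their part in the Tagln result was not tested. In blood endothelium near-empty droplets could account for 76.9% of the Gpx3 UMIs in sham, for 59.0% of those of Tgfbi in LT and 113% under raised flow, and for 57.4% to 61.6% of those of Cxcl2. The smaller cell types rest on few cells, with 29 to 45 mural cells and 31 to 139 lymphatic cells in each sham sample.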

How the results depend on the processing

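For LT against sham (236 genes) the count was 633 without a low-count filter, 567 with DESeq2, 407 with each library as a sample, 25 with sham and LT only and no day term, 374 without the clusters led by other cells, 143 without LT day 1 libraries 2 and 3 and 94 without LT day 1 library 1. Leaving out single samples gave 7 to 549. For raised flow against LT (1 gene) it was 35 without the filter, 36 with DESeq2, 9 by library, 2 by library size only, with transplanted samples only and without the clusters, and 0 without high doublet scores, with free RNA subtracted, without the day as replicate block (no replicate block, 604 genes with an unadjusted p under 0.05) and without LT day 1 libraries 2 and 3, LT day 1 library 1, raised flow day 1 library 3 or LT day 7 library 2 (773, 775, 707 and 866 unadjusted). Leaving out single samples gave 0 to 2. For day 7 against day 1 (227) it was 533 without the filter, 419 with DESeq2, 1869 by library, 341 without the clusters, 98 without LT day 1 libraries 2 and 3, and 0 to 767 with single samples left out. For grafts at day 1 against sham (434) it was 835, 743, 1245 by library, 197 without LT day 1 libraries 2 and 3, 262 without LT day 1 library 1, 670 without raised flow day 1 library 3, and 0 to 693. For day 7 against sham (80) it was 327, 240, 233, 45 with free RNA subtracted, 151 without the clusters, 52 and 31 without the LT day 1 libraries, and 3 to 256. For the LT effect against mural cells (73) it was 44 without LT day 1 libraries 2 and 3 and 55 without LT day 1 library 1. The alternatives without clusters or single libraries were chosen after seeing the data. The cause of these shifts was not tested.

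The 148 pairs of a called gene and a comparison gave 3317 results under alternative settings. Of these, 2417 kept the call, 900 kept the direction without the call, and 0 turned direction. Many of the genes had been chosen for samples that did not overlap, so the 0 was largely fixed in advance. Klf2, which was not called, had a log2 difference from sham of 0.80 without sham 1 and -1.91 without sham 3. The log2 ratio of the cell shares ranged from -0.85 to -1.60 for LT against sham and from 0.67 to 1.24 for raised flow against LT, with the direction kept. Depth limits rare genes in sham, whose cells held the fewest UMIs.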
